A study of Arabidopsis thaliana with 10 samples.

Results

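The unirradiated control seedlings of a radiation study form the subject here: 5 mock arrays out of 10 in the series, chosen by their label as mock-exposed, with no irradiated array used. Each mock array held RNA from whole Arabidopsis thaliana seedlings of the wild-type ecotype Columbia-0 (Col-0), 14 days old and harvested 24 h after the mock exposure. The study set them beside seedlings given 200 Gy of gamma radiation at 50 Gy per h for 4 h. It was done in 5 runs on separate days with independent plants, in June 2015, October 2015, March 2017, April 2017 and October 2017, with 1 mock array in each. These months are the labels' own; the scan recorded in the header of the June 2015 array is earlier than that month, which leaves the order of the runs as it is. Plants in all runs were grown on plates with 1% sucrose at about 23 °C with 16 h of light and 8 h of darkness each day, so genotype, age and stated growth conditions were shared. How many seedlings went into an RNA sample, and the hour of harvest, are not given in the sources used here.

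A control transcriptome is the baseline against which a treatment is read, and in plants it moves with the hour of harvest, light, sugar, mineral nutrition and touch. The plant clock switches between genes that peak in the morning, such as CCA1 and LHY, and genes that peak towards evening, such as TOC1. Jasmonate is the wound hormone, and its signal is damped by the JAZ repressors, whose own genes it switches on. Sulphur shortage, sugar shortage and heat each have well known sets of responding genes. Lists of such genes are used below to describe the runs, and whether a run met the condition a list is named for was not tested.

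Values are spot brightness from 1-colour microarrays, on which Cy3-labelled copies of the RNA bind to fixed probes. Each is given as log2 of the background-subtracted signal minus the 75th percentile of its array, so that 0 is that percentile and 1 unit is a 2-fold difference. Between 71.7% and 76.3% of 43603 probes were well above background on each array by the scanner software's flag, and 0 spots were saturated. Of 34280 genes, 22377 (65.3%) were well above background on all 5 arrays and are called measured here, 8627 of them with a gene symbol. An array name that matched no locus was counted as a gene of its own, and 19256 of the 22377 had a locus code. Whether unmatched names repeat genes counted by their locus was not checked. With 1 array per run there is no replicate within a run, so the spread below joins differences between plants, harvests, labelling and arrays. With 5 arrays, each SD is itself imprecise. The gene lists used below were chosen with earlier results of these data known. Their counts, and the shares of all genes set beside them, are therefore descriptions and not tests.

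Some technical values bear on how the spread is read. Probes printed in 5 spots on each array varied by a median SD of 0.071 between those spots, and the scanner software gave a median error of 0.144 per gene. Spike-in RNAs, foreign transcripts added to the samples at set amounts, moved far more. All 7 that were well above background in every spot were lowest in October 2015 and highest in April 2017, with SDs of 0.593 to 0.901 after scaling. Measured from their own mean on each array, their SDs were 0.076 to 0.303. They thus shifted mainly together, relative to the plant RNA.

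Some dim probes stood out by their place on the array. In March 2017, 480 genes were well above background and at least 4-fold brighter than on any other mock array while dim on the other 4, against 204 in June 2015, 163 in October 2015, 20 in April 2017 and 28 in October 2017. In March 2017, 55.6% of the 480 had probes in a band of rows, chosen after the values were seen, that held 16.5% of the genes dim on the other arrays. A further 31.7% lay in another band that held 11.4%. In June 2015, 93.6% of the 204 lay in a band that held 42.2%. In October 2015, 54% of the 163 lay in a band that held 21.7% and 28.2% in another that held 9.7%. These genes are outside the measured set. Of the measured genes with an SD of at least 1 that were highest in March 2017, 18.5% lay in the first band, which held 17.3% of all measured genes, and 16 of 92 in the other, which held 11.8%. For October 2015 the shares were 24.7% in a band of 23.3% and 19.1% in one of 11.8%, and for June 2015 they were 47.5% and 40%. The part of array position in those values was not tested.

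Photosynthesis genes made up most of the brightest genes with a symbol. Of the 20 brightest with a symbol, 15 were members of a list of 40 nuclear photosynthesis genes. Among the 100 brightest of all genes stood 31 of the 40, or 17 where a gene's value was the mean of all its probes, and 59 of the 100 had a locus code. The brightest gene with a symbol, ranked 3 among all genes, was LHCA1 (AT3G54890), a chlorophyll-binding antenna protein of photosystem I, at 7.88, 7.83, 8.06, 7.85 and 7.10 in the 5 runs in order of date. PSBO1 (AT5G66570), which stabilises the oxygen-evolving centre of photosystem II, came next at 7.90, 7.84, 8.03, 7.87 and 7.06. For both genes October 2017 was the low run and the other 4 lay close together.

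The small subunits of Rubisco, the carbon-fixing enzyme, were represented by RBCS1A (7.53 ± 0.31 SD, n = 5 for this and the following means), RBCS2B (7.49 ± 0.32), RBCS1B (7.44 ± 0.34) and RBCS3B (7.4 ± 0.34). The light-harvesting antenna of photosystem II gave CAB1 (7.69 ± 0.33), CAB2 (7.38 ± 0.25), CAB3 (7.23 ± 0.39), LHB1B2 (7.36 ± 0.42), LHCB2.2 (7.36 ± 0.35) and LHCB6 (7.49 ± 0.25). The Rubisco genes, and likewise CAB1, CAB2 and CAB3, are near-identical copies, so their probes can read one another's transcripts and their single values are uncertain. Photosystem subunits PSBW (7.68 ± 0.25), PSBR (7.65 ± 0.40), PSAF (7.5 ± 0.27) and PSAO (7.4 ± 0.28) and the photosystem I antenna LHCA4 (7.34 ± 0.34) followed, as did DRT112, the plastocyanin that carries electrons to photosystem I (7.45 ± 0.38). Outside photosynthesis, the 20 included GRP7, a clock-controlled RNA-binding protein (7.49 ± 0.22), and THI1, an enzyme that makes the thiazole part of vitamin B1 (7.26 ± 0.26).

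Brightness depends on the probe as well as on the transcript. Where a gene had a further measured probe, the pair differed by a median of 1.36 and, at the 95th percentile, by 4.83, so the order of neighbouring genes in this ranking has no meaning. The ranking itself repeated between runs. Of the 100 brightest genes, 71 were among the 100 brightest on every array and 0 had an SD of at least 1, against 3.48% of all measured genes (778 of 22377). Across genes, which are not independent replicates, Spearman's rho between pairs of arrays was 0.947 to 0.989.

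The bright end was lower in October 2017 than in the other runs. That run held the lowest value for 30.9% of all measured genes. Of the 100 brightest genes 96 had their lowest value there, with a median deviation of -0.55 from their own 5-run means, and so did 37 of the 40 photosynthesis genes, with a median deviation of -0.50. PSAH2, a subunit of photosystem I, had the highest SD of the list (0.44), at 4.1, 3.54, 4.41, 4.14 and 3.35. PSAE1, a further subunit of photosystem I, was at 6.93, 6.68, 7.03, 6.70 and 5.91, and LHCB4.2, a minor antenna protein, had the lowest SD (0.17). For PSAH2 the 2 October runs were both low. Quantile normalisation, which gives all arrays the same distribution of values, took the photosynthesis deviation in October 2017 to -0.00 and the median SD of the list from 0.339 to 0.109. Under that normalisation 12 of 40 were lowest in October 2017, while scaling to the array median, normexp background correction and the deposited table each left 37. The slope of the spike-in series reported by the software was 0.979 on this array and 0.971 in April 2017, against 1.028 to 1.065 on the others, and the part of this in the values was not tested.

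Spread between runs was small for most genes. The median SD was 0.281, with quartiles of 0.184 and 0.437 and a range of 0.021 to 3.10. An SD of at least 1 was reached by 3.48% of genes as above. An SD of at most 0.15, near the error value given by the scanner software, was found for 3563 of 22377 genes (15.9%). Dim genes varied more. With the measured genes divided by brightness into 10 equal bins, the median SD was 0.404 in the dimmest bin, 0.238 in the seventh and 0.278 in the brightest. The share with an SD of at least 1 was 4.16% in the dimmest bin, 5.85% in the next and 2.1% in the brightest.

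**Figure D1:**
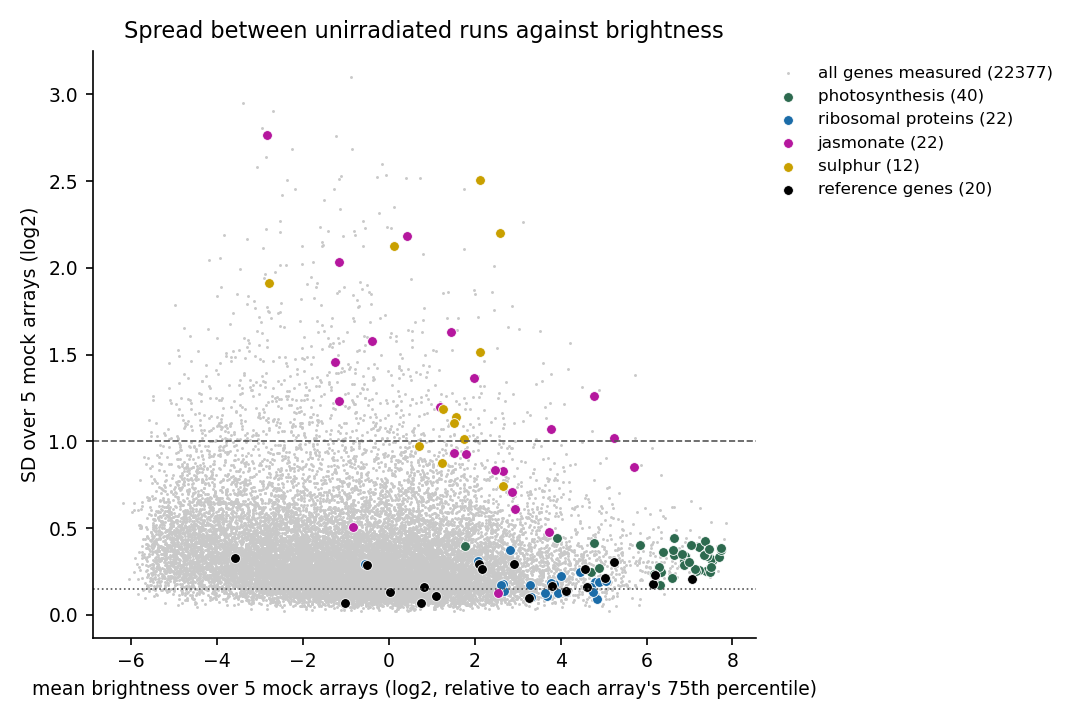
SD over the 5 mock arrays (vertical axis, log2) against mean brightness (horizontal axis, log2 relative to each array's 75th percentile), 1 point per measured gene. Photosynthesis genes sit at the bright end with SDs between 0.17 and 0.44, ribosomal protein genes lie below 0.38, and sulphur and jasmonate genes cross the dashed line at an SD of 1; the dotted line marks 0.15.

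March and April 2017 were the most alike of the runs. Between them 515 genes (2.3%) differed at least 2-fold and rho was 0.989, while every other pair had 1461 to 2832 such genes and a rho of 0.947 to 0.973. October 2015 and April 2017 were the farthest apart. October 2017 held the highest value for 287 of the 778 genes with an SD of at least 1 (36.9%), against 16.0% of all measured genes. October 2015 held it for 215 (27.6%, against 23.8%). April 2017 held the lowest value for 263 of them (33.8%, against 13.3%). Over all measured genes, the highest value fell in the 5 runs, in order of date, for 21.3%, 23.8%, 21%, 17.8% and 16.0%. The lowest value fell in them for 16.8%, 25.2%, 13.8%, 13.3% and 30.9%. Counts of list members below are to be read beside these shares and the 3.48% with an SD of at least 1.

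**Figure D2:**
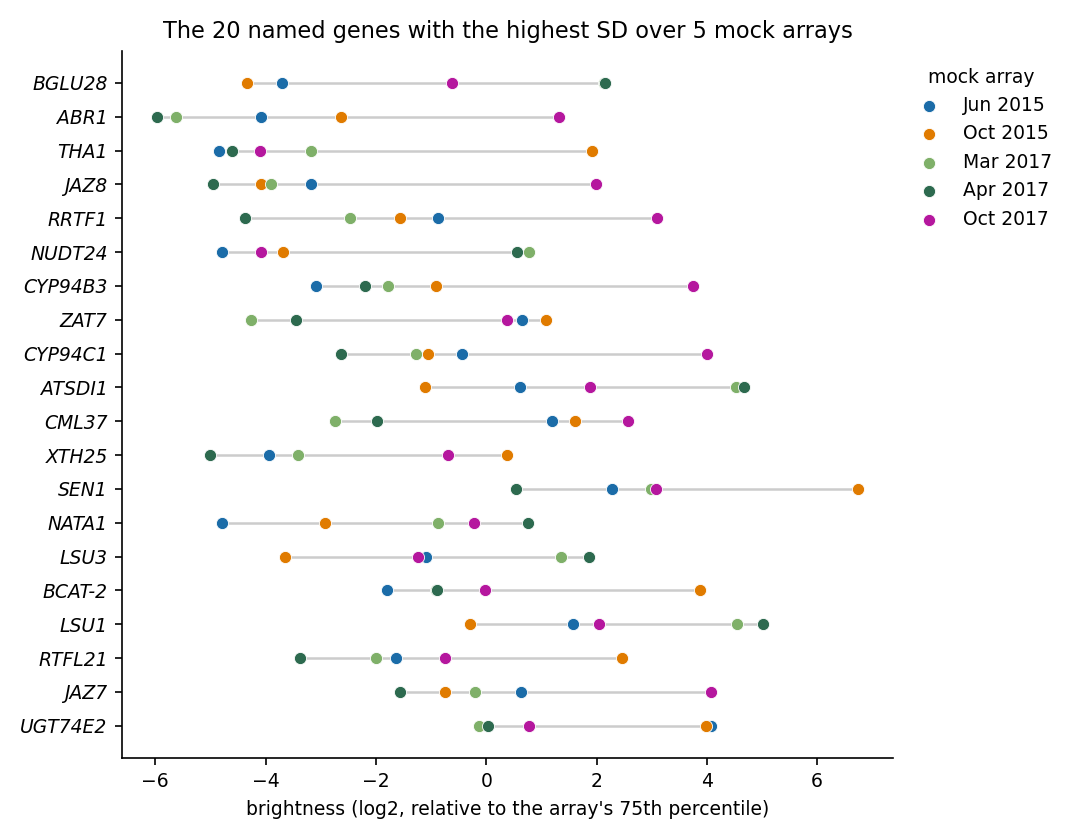
The 20 genes with a symbol and the highest SD; each point is 1 mock array, coloured by run, on a log2 brightness axis, and the grey line spans the range. For 6 genes, ABR1, JAZ8, RRTF1, CYP94B3, CYP94C1 and JAZ7, the October 2017 point stands apart at the high end.

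Jasmonate genes were high in October 2017. Of 22 measured list members, 17 had their highest value there, against 16% of all measured genes. The list's median deviation in that run was 1.27, and 12 members had an SD of at least 1 against 3.48% of all genes. JAZ8 (AT1G30135), a JAZ repressor that lacks the usual degradation signal, was at -3.18, -4.09, -3.89, -4.95 and 1.99 in order of date. JAZ7 (AT2G34600) was at 0.63, -0.75, -0.20, -1.57 and 4.07. Both stood far above the other 4 runs in October 2017, while JAZ12 was nearly level (SD 0.127).

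CYP94B3 and CYP94C1, also among the 20 most variable genes with a symbol, encode P450 enzymes that oxidise the active jasmonate. CYP94B3 (AT3G48520) was at -3.08, -0.91, -1.78, -2.19 and 3.75. CYP94C1 (AT2G27690) was at -0.44, -1.06, -1.28, -2.63 and 4.00. Both had the same single high run as the JAZ genes. The median SD of the jasmonate list was 1.046 over the 5 runs and 0.628 without October 2017.

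Genes of touch and rapid stress were high in the same run and low in March and April 2017. The list's median deviations in order of date were 0.69, 0.05, -1.02, -1.19 and 1.31. Of 18 members 12 were highest in October 2017, against 16% of all measured genes. In 16 the lowest value fell in March or April 2017, against 13.8% and 13.3% of all. An SD of at least 1 was reached by 12, against 3.48%. WRKY18, a transcription factor of defence, was at 1.75, 2.64, 1.95, 0.31 and 5.37, and CML38, a calmodulin-like calcium sensor, at 2.12, 2.15, 1.47, -0.01 and 4.72. The lowest SD in the list was still 0.737, for the kinase gene MKK9. RRTF1, ABR1, CML37 and ZAT7 of the 20 most variable genes with a symbol were also lowest in March or April 2017. RRTF1 (AT4G34410), a redox-responsive transcription factor, ran from -4.38 in April 2017 to 3.11 in October 2017, and ABR1 (AT5G64750), an ERF factor that represses abscisic acid responses, from -5.96 to 1.31 between the same runs. ABR1 in March 2017 (-5.62) and April 2017 lay near the lowest signal well above background on those arrays, -6.02 and -6.45, so its range is uncertain. CML37, a relative of CML38, was at 1.19, 1.62, -2.74, -1.99 and 2.58. ZAT7, a zinc finger protein, was at 0.66, 1.08, -4.27, -3.45 and 0.38. For the last pair March and April 2017 were the low runs and the other 3 lay close together.

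Genes that respond to sugar shortage were brightest in October 2015. Of 10 genes that respond to darkness and sugar starvation 9 were highest there, against 23.8% of all measured genes. Their median deviation was 2.07, and 8 had an SD of at least 1, against 3.48%. SEN1 (AT4G35770), a dark-inducible gene, was at 2.28, 6.75, 3.0, 0.55 and 3.07. BCAT-2 (AT1G10070), an aminotransferase of branched-chain amino acids, was at -1.80, 3.88, -0.91, -0.88 and -0.02. April 2017 was the low run for 7 of the 10. THA1 (AT1G08630), a threonine aldolase outside the list, was also high in October 2015, at -4.85, 1.93, -3.17, -4.62 and -4.1. KMD4 had the lowest SD of the list (0.49).

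Shade, auxin and growth genes were highest in October 2015 for 14 of 14 members, against 23.8% of all measured genes, with a median deviation of 1.38. XTR7 (AT4G14130), a cell wall enzyme induced by shade, was at -0.34, 4.42, 0.13, -0.77 and 0.56. IAA29, an auxin response repressor, was at -3.31, 1.58, -2.05, -2.75 and -1.80. The phytochrome-interacting factor gene PIF5 was also highest there, by little (SD 0.25). XTH25, a cell wall enzyme of the same family as XTR7, was at -3.94, 0.37, -3.41, -5.0 and -0.70, and RTFL21, a small peptide gene, at -1.63, 2.46, -1.99, -3.38 and -0.75. Both thus also peaked in October 2015.

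Heat shock genes were highest in October 2015 for 16 of 18 measured members (median deviation 1.28), against 23.8% of all measured genes. An SD of at least 1 was reached by 7, against 3.48%. HSP17.6C, a small heat shock protein, was at -0.99, 2.93, -1.31, -2.85 and -1.70, and HSP17.6II at -3.56, -0.12, -4.79, -5.17 and -3.72. HSFB2A, a heat stress transcription factor, was an exception, at 1.15, 0.92, 0.82, 0.70 and 1.28. In 12 of 14 genes of low oxygen the highest value fell in October 2015 too, with a smaller median deviation of 0.71 and 1 member with an SD of at least 1. That member was SRO5, at -1.81, -0.63, -1.42, -2.21 and 2.33, whose high run was October 2017. LBD41, a transcription factor of the hypoxia response, was at -1.19, -0.47, -0.48, -2.31 and -1.61, and the sucrose synthase gene SUS1 had the lowest SD (0.29).

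Without October 2015 the median SD of the sugar starvation list was 0.832 against 1.299, that of the shade list 0.510 against 0.877, and that of the heat shock list 0.503 against 0.844. The list of cold and dehydration genes also leaned on this run, with 12 of 21 members lowest there, against 25.2% of all measured genes. Its median SD was 0.425 without that run against 0.666.

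**Figure D3:**
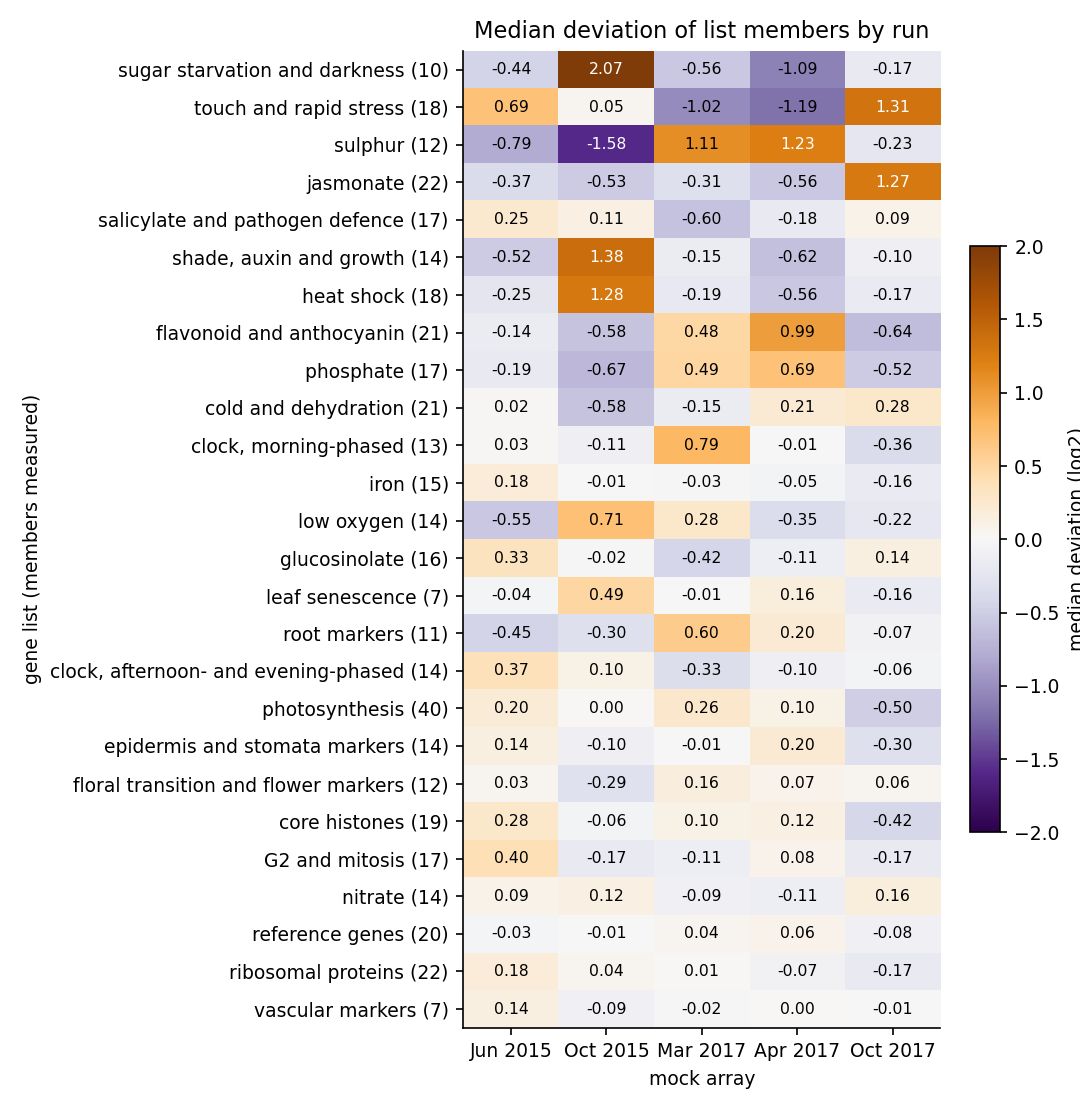
Median deviation of list members from each gene's own mean over the 5 mock arrays (log2, colour and number), for lists with at least 5 measured members, ordered from the highest to the lowest median SD. Sugar starvation, shade and heat shock are high in October 2015, sulphur in March and April 2017, and jasmonate and touch in October 2017, while the rows of ribosomal proteins, vascular markers and reference genes stay near 0.

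Sulphur shortage genes were high in both spring runs of 2017. All 12 members had their highest value in March or April 2017, against 21% and 17.8% of all measured genes. The lowest fell in October 2015 for 11, against 25.2%, and 9 had an SD of at least 1, against 3.48%. The median deviations by date were -0.79, -1.58, 1.11, 1.23 and -0.23. ATSDI1 (AT5G48850), named for its induction by sulphur deficiency, was at 0.61, -1.11, 4.53, 4.68 and 1.88, and LSU1 (AT3G49580), of the family responding to low sulphur, at 1.58, -0.30, 4.55, 5.02 and 2.05. The 2 spring runs lay within 0.5 of each other for both genes. APR1, which reduces activated sulphate, had the lowest SD of the list (0.745).

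BGLU28 (AT2G44460), a glucosidase also induced by sulphur shortage, had the highest SD of all genes (3.10). It was at -3.70, -4.34, 2.14, 2.16 and -0.62. LSU3, a relative of LSU1, was at -1.09, -3.65, 1.36, 1.87 and -1.24. A further pair of the 20 most variable genes with a symbol were high in spring 2017 or in all 2017 runs. NUDT24 (AT5G19470), a Nudix hydrolase, was at -4.79, -3.69, 0.78, 0.56 and -4.08, and NATA1 (AT2G39030), an acetyltransferase acting on ornithine, at -4.79, -2.93, -0.87, 0.76 and -0.21.

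Phosphate genes had their highest value in March or April 2017 in 16 of 17 members, 14 of them in April. Over all measured genes these runs held the highest value for 21% and 17.8%. An SD of at least 1 was reached by 2 members, against 3.48% of all genes. SPX3, a phosphate sensor family member, was at -0.32, -2.48, -0.30, 0.52 and -1.37, and the phosphatase gene PECP1 at 1.79, -0.38, 1.63, 2.35 and 0.70. SQD1, which makes sulpholipid, had the lowest SD (0.34). Flavonoid and anthocyanin genes were highest in April 2017 in 18 of 21 members, against 17.8% of all measured genes, with a median deviation of 0.99. An SD of at least 1 was reached by 6, against 3.48%. PAP1, the MYB factor that switches on anthocyanin synthesis, was at -2.0, -2.76, -0.17, 0.77 and -1.07. UF3GT, which adds sugar to anthocyanin, was at -1.42, -1.35, -0.17, 1.09 and -2.37, and the early pathway gene C4H had the lowest SD (0.25). April 2017 exceeded March 2017 for PAP1 and UF3GT and not for C4H.

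June 2015 was the high run for genes of growth and division, by small amounts. Among 17 genes of G2 phase and mitosis 16 were highest there, against 21.3% of all measured genes, with a median deviation of 0.40 and 0 members with an SD of at least 1. CYCB2;1, a mitotic cyclin, was at -3.55, -4.38, -4.50, -4.63 and -5.09, and CYCA1;1 at -0.92, -1.53, -1.45, -1.12 and -2.06. The spindle checkpoint gene MAD2 had the lowest SD (0.17). Ribosomal protein genes were highest in June 2015 in 16 of 22 members, with a median deviation of 0.18, and lowest in October 2017 in 15, against 30.9% of all measured genes. RPL5B was at 3.24, 2.91, 2.97, 2.71 and 2.24, RPL28A at 2.39, 2.3, 2.2, 1.76 and 1.73, and RPL9C had an SD of 0.09.

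Core histone genes were highest in June 2015 in 13 of 19 members and lowest in October 2017 in 16, against 21.3% and 30.9% of all measured genes. HTB1, a histone H2B gene, was at 0.55, 0.41, 0.71, 0.47 and -0.56, and H4f at 2.69, 2.55, 2.59, 2.64 and 1.76. H4d kept an SD of 0.04. Histone genes are near-identical copies, and their probes cannot be taken to read single genes. The list's median SD was 0.301, and 0.179 without October 2017.

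A pair of iron shortage genes stood apart in June 2015. BHLH101, a factor of the iron shortage response, was at -1.57, -4.02, -4.84, -4.96 and -4.68, and IMA2, a peptide that signals iron shortage, at -1.74, -3.56, -5.22, -4.74 and -4.62. BTS, which curbs that response, was nearly level (SD 0.21). Of 15 measured iron genes 7 were highest in June 2015, against 21.3% of all measured genes, and 2 had an SD of at least 1, against 3.48%. The median SD was 0.636, or 0.418 without June 2015.

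The medians of both clock lists moved in opposite directions in March 2017, though not every member did. Of 13 morning-phased genes 9 were highest in that run, against 21% of all measured genes, with a median deviation of 0.79. Of 14 genes on the afternoon- and evening-phased list 8 were lowest there, against 13.8%, and 9 were highest in June 2015, against 21.3%. LHY, a central morning factor, was at -2.57, -3.19, -0.74, -2.82 and -3.64. CCA1, its partner, was at -0.43, -0.97, 0.83, -0.27 and -0.78. TOC1, their evening counterpart, was at 0.92, 0.54, -0.60, -0.12 and 0.51. March 2017 was thus the highest run for both morning factors and the lowest for TOC1. The morning-phased PRR7 and RVE7 were instead lowest in March 2017, and LNK4 and PRR9 were highest in other runs. Of the other members of the afternoon- and evening-phased list, ZTL, LKP2, GRP7 and GRP8 were lowest in October 2017, ELF4 in October 2015 and CHE in April 2017. Whether the transcript of each list member cycles over the day was not tested here.

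Most clock genes kept within an SD of 1; LHY was the only one of 27 above it, at 1.11. The SDs of the other morning-phased genes were 0.93 for LNK3, 0.72 for LNK1, 0.65 for LNK2, 0.65 for RVE8, 0.64 for PRR9, 0.60 for RVE1, 0.55 for LNK4, 0.37 for PRR7, 0.37 for RVE7, 0.17 for RVE6 and 0.14 for RVE4. LNK3, a coactivator of the RVE factors, was at 0.65, -0.25, 1.79, 0.81 and -0.54. BOA, a relative of the evening factor LUX, had the highest SD of the evening list (0.87), at -0.59, -1.02, -1.82, -1.81 and 0.24. LUX was at 2.06, 1.51, 0.67, 1.06 and 1.98, and ELF4, its partner in the evening complex, at 3.37, 1.83, 2.15, 2.47 and 2.12. For the others the SDs were 0.49 for PRR5, 0.40 for PRR3 and CHE, 0.35 for ELF3, 0.29 for GI, 0.28 for LKP2, 0.24 for FKF1 and GRP8, 0.23 for ZTL and 0.22 for GRP7. The median SD was 0.639 for the morning list, 0.336 without March 2017, and 0.377 for the evening list. The hour of harvest of each run is not given, so its part cannot be told apart from that of the run.

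**Figure D4:**
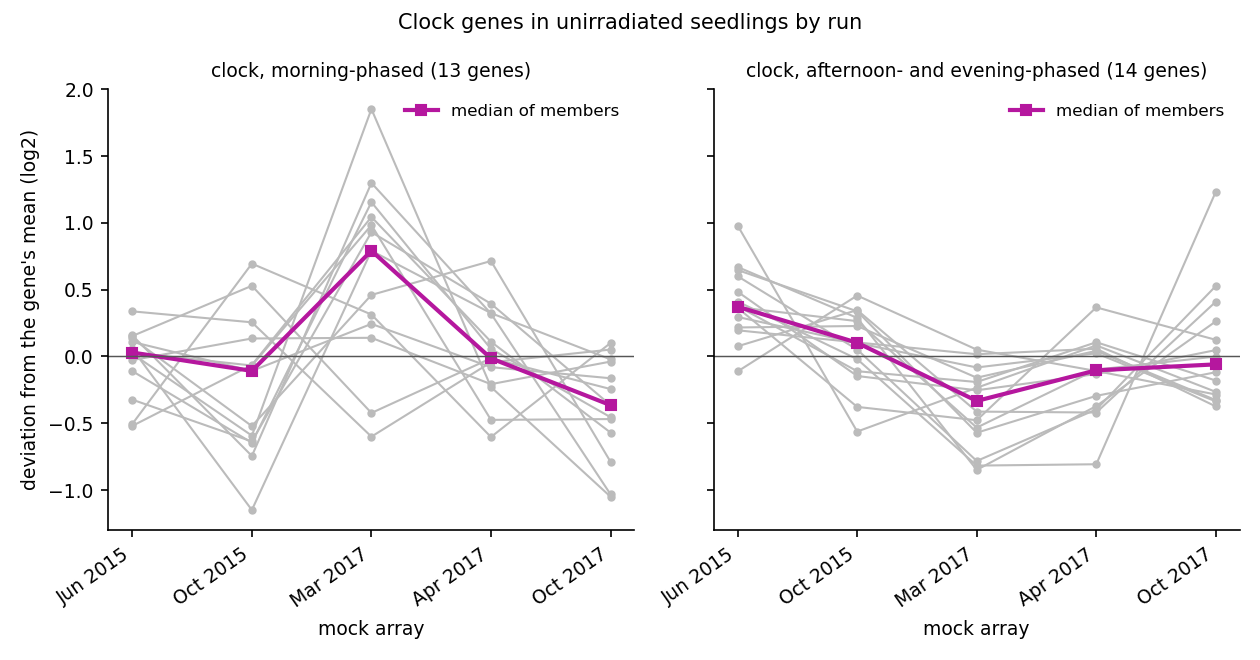
Deviation of each clock gene from its own mean over the 5 mock arrays (log2), 1 grey line per gene and the median in colour, with runs in order of date. The morning-phased median peaks at 0.79 in March 2017, where the evening-phased median is lowest at -0.33.

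Other pathways differed in single runs. In salicylate and pathogen defence 7 of 17 measured genes had an SD of at least 1, against 3.48% of all genes. In June 2015 7 were highest, against 21.3%, and in March 2017 8 were lowest, against 13.8%. WRKY38 was at -3.35, -3.51, -2.74, -1.76 and -0.17, and CBP60G, a factor that switches on salicylate synthesis, at 0.93, 0.52, -2.33, -1.60 and -0.57. These 2 followed different orders of runs. NPR1, the salicylate receptor, was nearly level (SD 0.19).

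Among cold and dehydration genes, 3 of 21 had an SD of at least 1, against 3.48% of all genes. CBF1, a cold response factor, was at -1.53, -1.68, -2.63, -4.48 and -1.58, and RD29B, induced by abscisic acid, at -5.25, -2.67, -5.65, -4.76 and -4.18. NCED3, which starts abscisic acid synthesis under drought, had an SD of 0.19. Nitrate genes had a median SD of 0.259, near the 0.281 of all genes, and 0 of 14 had an SD of at least 1, against 3.48% of all genes. BT2, a scaffold protein controlled by nitrate and sugar, was at 4.92, 4.44, 3.52, 2.53 and 4.64, its relative BT1 had an SD of 0.63, and the nitrate reductase gene NIA2 had an SD of 0.13.

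Glucosinolate genes had a median SD of 0.567, above that of all genes. An SD of at least 1 was reached by 0 of 16 members, against 3.48% of all genes. CYP79B3, of the indole branch, was at 1.57, 2.2, 0.61, 0.04 and 2.13, and MAM1, of the aliphatic branch, at 4.15, 3.83, 2.53, 2.71 and 3.25, while the myrosinase gene TGG1 had an SD of 0.21. Both biosynthetic genes were low in March and April 2017. In leaf senescence 1 of 7 measured genes had an SD of at least 1, against 3.48% of all genes. It was SAG13, at -0.19, -0.24, -2.79, -0.87 and -1.67, followed by the NAC factor gene NAP (SD 0.75), while PAO, which opens the chlorophyll ring, had an SD of 0.13. SAG12, the classical late senescence marker, was well above background on 1 array.

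By the probe that stood for each gene, the steadiest genes with a symbol had SDs below the error value given by the scanner software. These SDs were also below the 0.071 between replicate spots. DPA (AT5G02470), a partner of the E2F cell cycle factors, was at -2.42, -2.41, -2.44, -2.41 and -2.46 (SD 0.021). SAR3 (AT1G80680), a nuclear pore protein, was at 0.14, 0.17, 0.14, 0.11 and 0.15. RH8 (AT4G00660), an RNA helicase, was at -0.63, -0.67, -0.63, -0.62 and -0.63, and DCP1 (AT1G08370), of the complex that removes the mRNA cap, at 0.21, 0.15, 0.19, 0.17 and 0.16. The other 8 were FAB1, a fatty acid synthesis enzyme, SCL14, a GRAS factor of detoxification, NRPB8A, an RNA polymerase subunit, the kinase gene TSL, ERF1-3, a translation release factor, DHNAT2, of vitamin K synthesis, PMD1, a protein of peroxisome and mitochondrial division, and P5CR, the last enzyme of proline synthesis. Their SDs were 0.026 to 0.035. The SDs of all these genes are among the smallest of 22377, so they are low in part by selection. A further measured probe gave larger SDs, 0.08 for DCP1, 0.139 for FAB1, 0.154 for SCL14 and 0.112 for DHNAT2, each above 0.071. The other genes named here had no such probe.

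Genes used as references in quantitative PCR had a median SD of 0.192 over 20 measured members, and 6 had an SD of at most 0.15, against 15.9% of all genes. PP2AA3, a phosphatase scaffold, was at 0.81, 0.80, 0.75, 0.65 and 0.73 (SD 0.066). An F-box gene (FBOX, SD 0.067), APT1 (0.096), TIP41L (0.106), SAND (0.133) and the actin gene ACT7 (0.139) were the other 5. The next were UBC21 (0.157), TUA2 (0.159), YLS8 (0.163) and EF1A (0.176).

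Several widely used references varied more. UBQ10 had an SD of 0.207, UBQ5 0.212, GAPC2 0.229, TUB4 0.263 and EIF4A1 0.264. UBQ10, UBQ5 and GAPC2 were lowest in October 2017, the run in which the bright end was lower, while TUB4 and EIF4A1 were not. The part of that shift in these SDs was not tested. EXPRS (0.289), UBC9 (0.292), ACT8 (0.294), GAPC1 (0.304) and a pentatricopeptide repeat gene (PPR, 0.329) had the highest SDs. GAPC1, a glycolytic enzyme, was at 5.19, 4.89, 5.58, 5.55 and 5.07, and ACT8 at 2.65, 2.91, 2.96, 2.67 and 3.38. These 5 lay above the median SD of all genes. The helicase gene of the list was dim on each of the 5 arrays, and ACT2 and ROC3 had no matched probe. No member had an SD of at least 1. Ribosomal protein genes had a median SD of 0.174, with 8 of 22 at an SD of at most 0.15, against 15.9% of all genes.

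**Figure D5:**
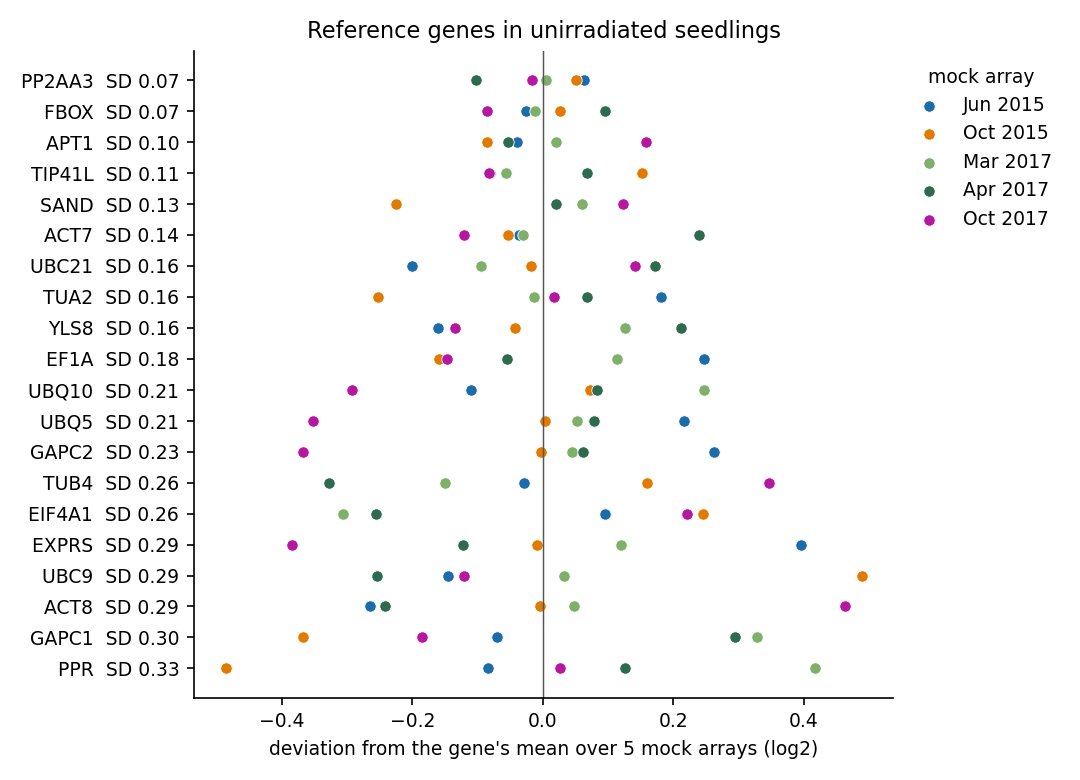
Deviation of each reference gene from its own mean over the 5 mock arrays (horizontal axis, log2), 1 point per run, with genes ordered by SD. The points of PP2AA3 and FBOX lie within 0.11 of 0, while those of PPR, ACT8 and UBC9 reach beyond 0.4.

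Markers of the organs in a whole seedling were present on all arrays. Of the root markers 11 of 12 were measured, with PYK10, a root glucosidase, at a mean of 5.78. In March 2017 9 of the 11 were highest (median deviation 0.60), against 21% of all measured genes. PRP3, a cell wall protein of root hairs, was at -0.94, -0.92, 0.67, 0.04 and 0.09, RHD6, which starts root hairs, at -3.49, -3.31, -2.0, -2.2 and -2.26, and PLT1, of the root stem cell niche, had the lowest SD (0.14). The 2015 runs were lower than the 2017 runs for both root hair genes. In whole seedlings, fewer root cells and less RNA per root cell cannot be told apart. The touch, sulphur and phosphate lists moved between the same runs, and the part of root share in them was not tested.

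Epidermal and stomatal markers were all measured (14 of 14), with a median SD of 0.313. EPF2, a peptide of early stomatal cells, was at -3.87, -4.06, -4.34, -3.69 and -5.13, MUTE, of guard mother cells, at -3.65, -4.51, -4.25, -3.54 and -4.54, and FDH, of the epidermal surface, had an SD of 0.11. Vascular markers were the steadiest list, with 7 of 7 measured and a median SD of 0.167, or 0.0999 without June 2015. APL, a phloem factor, had an SD of 0.32, SUC2, the phloem sucrose transporter, 0.26, and CESA8, a cellulose synthase of secondary walls, 0.05.

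Flower, pollen and seed markers are described as well, and they do not establish the stage of the seedlings. Of 14 floral genes 12 were measured, with SDs of 0.116 to 0.543. SEP3, a floral organ factor, was at -1.88, -1.98, -1.12, -1.12 and -0.73, FLC, the vernalisation-sensitive repressor of flowering, at -4.42, -4.56, -3.89, -4.04 and -5.05, and SEP1 had the lowest SD. SEP3 was lower in both 2015 runs than in the 2017 runs. Of 6 pollen and anther markers 0 were measured, 5 being dim on every array, and of 11 seed storage markers 0 were measured, 6 being dim on every array.

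The labels give 1 grouping of the mock runs, the year. In limma, 7 of 22377 genes (0.0313%) were higher in the 3 runs of 2017 than in the 2 of 2015 and 17 (0.0760%) were lower, at a Benjamini-Hochberg adjusted p under 0.05 in a two-sided test with 3 residual degrees of freedom. An unadjusted p under 0.05 was reached by 1728 genes (7.72%). Of the 24 genes called, 7 had a symbol and all 24 had an SD of at least 1. No list member passed. The count was 0 in each direction without the June 2015, October 2015, March 2017 or April 2017 array, and 29 higher and 46 lower without October 2017. It was also 0 in each direction with no filter on dim probes, and 16 higher and 29 lower with a filter of at least 3 arrays. The year cannot be told apart from the slides, scans and plant batches that went with it.

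UGT74E2 (AT1G05680), which attaches sugar to the auxin precursor indole-3-butyric acid, was at 4.08 and 3.99 in 2015 and at -0.13, 0.03 and 0.78 in 2017. It was 14.0-fold lower in 2017 (log2 -3.80 ± 0.31 SE, limma adjusted p = 0.0378). SOT12 (AT2G03760), a sulphotransferase, was at 3.44 and 3.13 in 2015 and at -0.25, -0.27 and 0.30 in 2017 (log2 -3.36 ± 0.25 SE, limma adjusted p = 0.0305). For both genes the years did not overlap, which their choice by the year difference favours. CRF6, a cytokinin response factor, was at 1.05 and 1.2 against -1.58, -1.40 and -1.08 (log2 -2.48 ± 0.22 SE, limma adjusted p = 0.0425). ABCC3, a vacuolar transporter of conjugates and chlorophyll breakdown products, was at 2.3 and 2.2 against -0.18, 0.27 and -0.07 (log2 -2.24 ± 0.21 SE, limma adjusted p = 0.0469).

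3 named genes were higher in 2017. LAP5 (AT4G34850), a polyketide synthase known from pollen wall synthesis, was at -5.46 and -5.61 in 2015 and at -2.21, -2.63 and -2.27 in 2017, which was 8.95-fold higher (log2 3.16 ± 0.21 SE, limma adjusted p = 0.0305). Its 2015 values lay near the lowest signal well above background, -6.18 in June 2015 and -6.03 in October 2015, so the size of this fold is uncertain. SQP2, a squalene epoxidase, was at -4.06 and -4.42 against -1.35, -1.38 and -0.98 (log2 3.01 ± 0.23 SE, limma adjusted p = 0.0305). THI2.1, a thionin defence peptide, was at -3.11 and -3.17 against -0.61, -0.86 and -0.74 (log2 2.40 ± 0.18 SE, limma adjusted p = 0.0305). For each of the 7 genes, all 3 runs of 2017 lay on the same side of both runs of 2015. The genes were chosen by that difference on the same arrays, so this adds no support to the calls.

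A further probe of the same gene was available for 136 of the 778 genes with an SD of at least 1, and 113 of these (83.1%) had an SD of at least 1 by that probe too, against 2.69% of all 5879 genes with such a probe. THA1 had an SD of 2.81 by both probes, CML37 2.35 and 2.32, and SEN1 2.26 and 2.51. For genes with an SD of at most 0.15 the share was lower, 428 of 1201 (35.6%), against 12.2% of all. A further probe shares the RNA and the array with the first, so it bears on the probe and not on the run.

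Grouped by the letters that open the gene symbol, a grouping made after the values were seen, 59 groups had at least 15 measured genes. The ERF group, mostly ethylene response factors but with the release factor ERF1-3 among them by its letters, had the highest median SD (0.722, 21 genes). Of these, 11 were highest in October 2017, against 16% of all measured genes. XTH cell wall enzymes followed at 0.563 (26 genes, 12 highest in October 2015, against 23.8% of all) and GSTU glutathione transferases at 0.560 (24 genes). The share with an SD of at least 1, 3.48% over all genes, was highest for NUDT genes at 33.3% (6 of 18). It was 20.8% for GSTU genes (5 of 24) and 19% (4 of 21) in each of the HSP and CRK groups. WRKY factors had 18.4% (9 of 49). Cytochrome P450 genes (CYP) had 8.81% (14 of 159), below several other groups. At the steady end stood translation initiation factors (EIF, 0.146, 20 genes), peroxins (PEX, 0.157, 19 genes) and deubiquitinating enzymes (UBP, 0.171, 27 genes). These groups are described by counts alone, with no test.

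A further 3955 genes (11.5%) were well above background on 1 to 4 mock arrays, and 7948 (23.2%) on 0. Of the 30 with a symbol and the widest ranges, 11 were highest in March 2017, 8 in June 2015, 6 in October 2015, 4 in October 2017 and 1 in April 2017. March 2017, June 2015 and October 2015 are the runs with the bands of rows described above, and the part of array position in these ranges was not tested. The genes named next were chosen after their values were seen. DDF1, a relative of the CBF cold factors, was at -3.83, -2.03, -6.44, -8.39 and 3.10, not well above background in March and April 2017. It was at least 749-fold brighter in October 2017 than in April 2017, where the lowest signal well above background on the dim array stands for the dim value. HSP23.6-MITO, a mitochondrial small heat shock protein, was at -1.96, 1.24, -5.25, -6.65 and -4.98, not well above background in April 2017, and at least 207-fold brighter in October 2015 than there. ARI12, a ubiquitin ligase gene, was well above background in the 2015 runs alone, at -1.85 and -1.66, against -7.95, -8.44 and -9.48 in 2017. These ranges are between single arrays and carry no test.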

How the data were processed

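RNA of 5 mock-exposed seedling samples was measured on 1-colour Agilent arrays, 1 sample per run, each on its own slide. The scanner files hold linear spot intensity, background-subtracted by Feature Extraction 11.0.1.1, per the file headers; the submitters' processing notes name version 9.1. The deposited value table holds linear ratios of the authors, with mock column medians of 0.969, 0.963, 0.959, 0.974 and 0.9255; centred per probe, its log2 correlated with the scanner values at 1 to 4 decimals, and its own centring and scaling are not stated. It served as an alternative.

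Values were log2 of the processed signal minus the array's 75th percentile, without control or outlier spots, replicate spots averaged. Probes were named through transcript accessions with RefSeq TAIR10.1: 34348 matched a locus and 9255 did not. The unmatched probes were kept under their array name. The brightest probe stood for its gene, and a gene had to be well above background on all 5 arrays. SDs are over 5 arrays. The years were compared with limma 3.58.1 in R 4.3.3 (lmFit, eBayes, Benjamini-Hochberg adjustment), tested on simulated data. Per the labels the runs used independent biological samples on different days.

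Named genes were the 20 brightest, 20 with the highest and 12 with the lowest SD, those called between years, all clock and reference genes, and of each other list the 2 highest and 1 lowest SD. The 28 lists held 466 loci, 425 of them measured. Members and lists were chosen with earlier results of these data known. Alternatives were scaling, normexp (offset 50, on median spot signals), the deposited table, dim filters, probe choice, eBayes with trend, and leaving out each array. Promoter motifs were not analysed here.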

Additional observations from a re-analysis of the deposited data

Results flagged for a closer look

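Among the 167 genes named in the text, 16 had 1 mock array far from the other 4, by a gap of over 0.71 of the gene's range. Chance flags about 1 in 20 such groups, but many of these genes were chosen by their SD over the same arrays and move together, so that rate cannot be applied to this count. In October 2017 the array was low for 9 of them, at 7.23 for PSBW (next lowest 7.77), 7.10 for LHCA1, 7.06 for PSBO1, 7.02 for PSAF, 6.96 for PSBR, 6.79 for PETE2 (listed above as DRT112), 6.75 for LHCA4, 1.76 for the histone gene H4f and -0.56 for the histone gene HTB1. The same array was high for JAZ8, at 1.99 against -3.18 for the next, and for H4d, at 1.29 against 1.21. October 2015 was high for THA1, at 1.93, and for XTR7, at 4.42, and low for RH8, at -0.67, where the gap to the next array was small in absolute terms. June 2015 was high for BHLH101, at -1.57 against -4.02. April 2017 was high for the reference gene ACT7, at 4.37 against 4.1.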

How the results depend on the processing

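When 130 median deviations of a list in a run were each recomputed under 4 alternatives (scaling to the array median, quantile normalisation, normexp and the deposited table), the sign turned 28 times, for reported values of at most 0.084 in size; this comparison was chosen after seeing the data. Quantile normalisation gave 11 genes lower in 2017 and a median SD of 0.1087 for photosynthesis. A filter of at least 3 arrays gave 16 genes higher and 29 lower in 2017 (7 and 17 as reported). Without a filter 3614 genes had an SD of at least 1, 0 were higher and 0 lower in 2017 in limma, and 50.37% of variable genes repeated by a further probe. With the mean of all probes, 17 photosynthesis genes stood among the 100 brightest. Leaving out 1 array gave 0 to 29 genes higher and 0 to 46 lower in 2017. Median SDs then ranged from 0.1516 to 0.3894 for photosynthesis, 0.6281 to 1.126 for jasmonate, 0.1792 to 0.3455 for core histones, 0.336 to 0.6871 for morning clock genes, 0.5025 to 0.959 for heat shock, 0.4247 to 0.7183 for cold, 0.8319 to 1.481 for sugar starvation, 0.5101 to 0.9824 for shade, 0.4178 to 0.6454 for iron and 0.0999 to 0.1896 for vascular markers. Of 2004 SDs of named genes under alternatives, 162 moved by over 1.5 times; of 91 year differences of named genes under alternatives, 38 lost the call and 0 reversed. The causes were not tested. No paired analysis was possible because no result compares mock with irradiated samples. The slide could not be used as a block, each mock array having its own slide, and promoter motifs were not run.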
